A study of Mus musculus with 4 samples.

Results

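The Serpina3 genes Serpina3c, Serpina3f, Serpina3g, Serpina3k, Serpina3m and Serpina3n are mouse relatives of human antichymotrypsin. These 6 genes were taken by name and matched through their Entrez numbers, and all 6 were among the 17543 genes listed in any of the livers studied. Their transcripts were measured by RNA sequencing of whole liver from C57BL/6 mice of 2 genotypes, Ezh2(K307R/K307R), which carries a point mutation on both copies of Ezh2, and WT. Ezh2 is the catalytic subunit of the Polycomb repressive complex PRC2, and the comparison asks which liver transcripts the mutation goes with. There were 2 livers of each genotype, replicates 1 and 2, and the labels give no sex, age, hour of collection or treatment. They do not say that the replicates were separate animals, so the p values rest on a spread between samples that may be technical.

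Serpins are protease inhibitors that work by suicide. The target protease cuts an exposed stretch near the C-terminal end of the serpin, the reactive centre loop, and is trapped by the change of shape that follows. Humans have a single antichymotrypsin gene, SERPINA3, made by hepatocytes as an acute phase plasma protein, whereas in mice the gene multiplied into a cluster whose members differ most in that loop. Cytokines of the interleukin 6 type, glucocorticoids and growth hormone are known inputs to Serpina3 transcription in rodent liver.

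The loops are shown first because they set what each inhibitor can bind and because reads over them tell the copies apart. The stretches below are coding bases from the start of the loop's hinge, read from the GENCODE M21 transcripts on GRCm38, the assembly also called mm10, and each lies in a single exon. Capitals mark positions at which the 6 aligned members are not all the same.
Serpina3k (chr12:104345269-104345364, plus strand): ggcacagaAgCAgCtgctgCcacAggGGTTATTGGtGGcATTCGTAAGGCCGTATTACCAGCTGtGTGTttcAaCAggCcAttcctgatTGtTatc
Serpina3m (chr12:104393769-104393870, plus strand): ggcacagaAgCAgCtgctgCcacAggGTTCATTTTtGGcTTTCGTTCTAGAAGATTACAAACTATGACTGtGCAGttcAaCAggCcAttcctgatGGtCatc
Serpina3c (chr12:104147295-104147387, minus strand): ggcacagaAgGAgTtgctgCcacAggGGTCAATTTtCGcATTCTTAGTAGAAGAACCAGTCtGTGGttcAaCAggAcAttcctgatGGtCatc
Serpina3n (chr12:104413448-104413549, plus strand): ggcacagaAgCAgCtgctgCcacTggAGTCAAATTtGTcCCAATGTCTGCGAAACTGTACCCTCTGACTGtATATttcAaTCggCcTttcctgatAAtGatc
Serpina3g (chr12:104241072-104241173, plus strand): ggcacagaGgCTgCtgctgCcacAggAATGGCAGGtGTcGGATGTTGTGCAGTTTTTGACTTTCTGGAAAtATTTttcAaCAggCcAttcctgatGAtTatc
Serpina3f (chr12:104220245-104220349, plus strand): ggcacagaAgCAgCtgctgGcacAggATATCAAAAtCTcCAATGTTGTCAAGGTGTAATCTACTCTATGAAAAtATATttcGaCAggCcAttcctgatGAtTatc
Across the whole coding sequence Serpina3k and Serpina3m were the most alike of the 15 pairs, with 91.7% of 1248 aligned bases identical, and within the loop stretch they differed at 22 of 96 bases (77.1% identical). Serpina3c and Serpina3m came next, at 89.5% over the coding sequence and 82.8% over the loop. Every pair was less alike in the loop than over the coding sequence. The lowest value was for Serpina3c with Serpina3g, at 59.1% over the loop against 81.9% over the 645 coding bases that could be aligned, since the annotated coding sequence of Serpina3g is short.

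**Figure D1:**
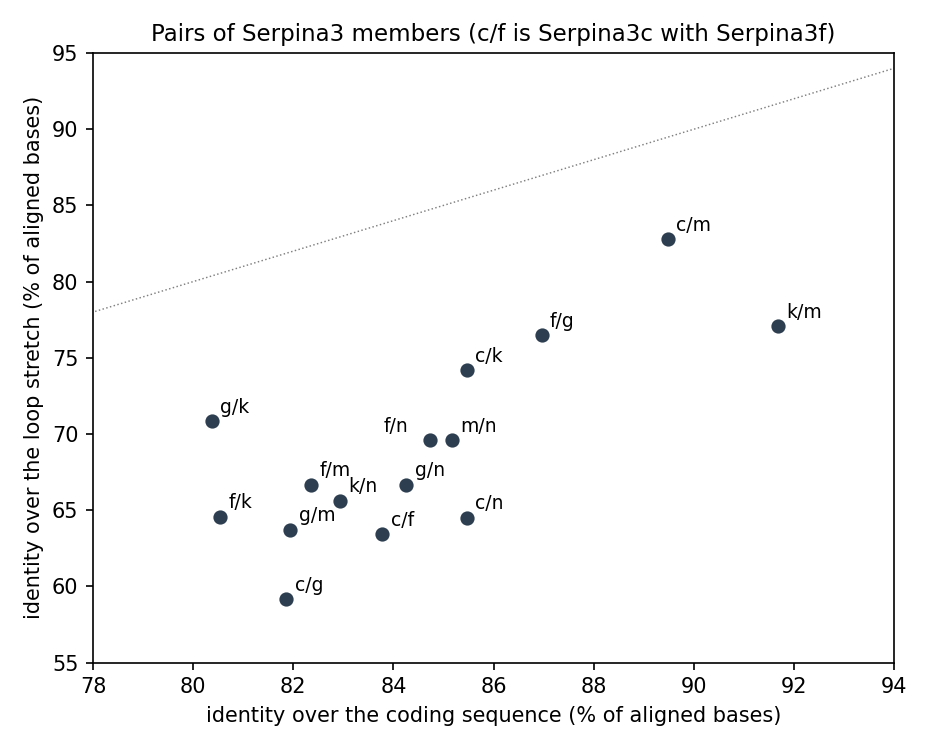
Each point is a pair of members, with the percentage of identical aligned bases over the coding sequence on the horizontal axis and over the loop stretch on the vertical axis. All 15 pairs lie below the dotted line of equal identity, and the pair of Serpina3k with Serpina3m stands farthest right, at 91.7%.

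How far the transcripts can be counted separately was gauged on the same GENCODE transcripts, which are not the RefSeq transcripts that were counted. Serpina3k has 2057 bases in GENCODE against 1652 as counted, Serpina3c 2213 against 1690 and Serpina3g 1803 against 2030. The other members differed less in length. The shares below are therefore approximate for the counted transcripts. Of all runs of 50 bases in the Serpina3m transcript, 19.1% also occurred in another gene's transcript, and 16.0% of all runs occurred in that of Serpina3k. For Serpina3k the share was 14.0%, mostly with Serpina3m (12.8% of all runs). It was 16.0% for Serpina3g, 12.1% for Serpina3f, 6.9% for Serpina3n and 4.25% for Serpina3c. With runs of 100 bases the shares were 6.09% for Serpina3m, 4.85% for Serpina3k, 4.64% for Serpina3g, 3.96% for Serpina3f, 0.204% for Serpina3n and 0% for Serpina3c. The sources used here do not give the read length, and RSEM, which is named in the submitters' processing notes, divides reads that match several transcripts by estimate. Values of single members therefore carry this uncertainty, and for Serpina3k and Serpina3m it is largely between each other.

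The deposited expected counts summed to between 18602928 and 18749610 in the Ezh2 K307R livers and between 19289715 and 20044832 in the WT livers, and 12837 genes passed the filter on low counts. Levels are given as CPM, counts per 1000000 reads of a scaled library, and genotypes were compared with edgeR's quasi-likelihood test, in which a gene was called at a Benjamini-Hochberg adjusted p under 0.05 over all genes tested. At that threshold 2.86% of all genes tested were called, with 1.39% higher and 1.47% lower in Ezh2 K307R livers. The 367 calls became 211 without Ezh2 K307R replicate 2, 720 without WT replicate 1 and 607 without WT replicate 2. With total-count scaling 60.3% of the calls were higher, against 48.5% with the main scaling. Ezh2 itself was at 3.45 and 2.56 CPM in Ezh2 K307R livers and 3.36 and 3.93 CPM in WT livers, which does not check the labels because a point mutation need not change the level. The genotypes also differed in sex-chromosome transcripts, with 6172 and 11201 reads of Xist in Ezh2 K307R livers against 6 and 6 in WT livers, and 0 and 0 reads of 4 Y-linked genes in Ezh2 K307R livers against 2732 and 2551 in WT livers. This is the pattern of female livers in Ezh2 K307R and of male livers in WT, although the labels give no sex. Effects of genotype and of sex cannot be told apart in any value that follows. Arntl, a core clock activator, had 232 and 463 reads in Ezh2 K307R livers and 19 and 25 in WT livers. The labels give no hour of collection, so the part of collection time was not tested and could not be.

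As a whole the family held 97644 and 149310 reads in Ezh2 K307R livers, against 323520 and 182690 reads in WT livers. After scaling this was 6409 ± 1738 CPM in Ezh2 K307R livers and 13683 ± 7122 CPM in WT livers (mean ± SD, n = 2 each), a log2 ratio of -1.09. WT replicate 1 carried much of it, since the ratio was -0.43 without that liver and -1.55 without WT replicate 2. Both Ezh2 K307R livers lay below both WT livers, but the nearest livers were close, at 7638 CPM in Ezh2 K307R replicate 2 and 8648 CPM in WT replicate 2. The sum was given no test because its members were chosen with earlier results known. It was mostly Serpina3k, which made up 82.2% and 87.9% of the family's reads in Ezh2 K307R livers and 96.7% and 93.9% in WT livers. Without Serpina3k the other members summed to 923 and 921 CPM in Ezh2 K307R livers and 622 and 529 CPM in WT livers. The remainder was thus higher in Ezh2 K307R livers while the whole was lower. Most of the remainder's difference was Serpina3m, with a mean of 489 CPM in Ezh2 K307R livers and 195 CPM in WT livers. Serpina3n overlapped between the genotypes, and Serpina3c, Serpina3f and Serpina3g had lower means in Ezh2 K307R livers. In whole tissue, fewer cells of a type and less RNA per cell cannot be told apart.

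**Figure D2:**
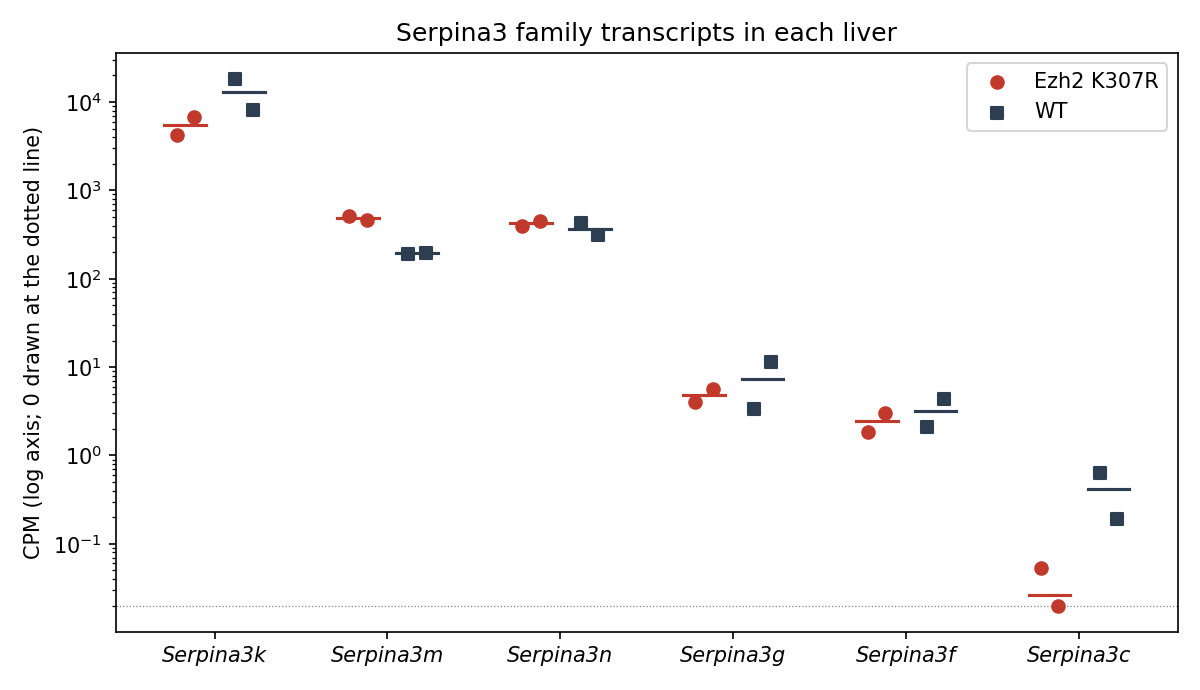
CPM of each member (log axis) in the 2 Ezh2 K307R livers (circles) and the 2 WT livers (squares), with lines at the genotype means and a value of 0 drawn at the dotted line. Serpina3m is higher in both Ezh2 K307R livers (458 and 520 CPM) than in both WT livers (192 and 198 CPM), Serpina3k and Serpina3c are lower in both, and the other members overlap.

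Of the 5 members tested, 1 was called, Serpina3m, which rose, and 0 fell, where 2.86% of all genes tested were called. At an unadjusted p under 0.05 there were 2, Serpina3m and Serpina3k, against 16.8% of all genes tested. DESeq2 called the same 2 members at its adjusted p, against 5.95% of all genes, and limma-voom called Serpina3m alone, against 2.3%. The median log2 fold change of the 5 was -0.41, against 0.01 over all genes tested. In 2 of the 5, Serpina3k and Serpina3m, the livers of the genotypes did not overlap, as was so for 48.6% of all genes tested. The members that did not pass are given by value.

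Serpina3m (Entrez gene 20717, chromosome 12 from 104387157 to 104394259) had 9803 and 8947 reads in Ezh2 K307R livers, against 3324 and 4190 reads in WT livers. Its level was 520 and 458 CPM in Ezh2 K307R livers and 192 and 198 CPM in WT livers. Livers of a genotype lay close together, and both Ezh2 K307R livers were above both WT livers. The transcript rose 2.5-fold (95% interval 1.74 to 3.59), or by 1.32 (SE 0.22) as a log2 fold change, with an edgeR adjusted p of 0.0271. The call was not kept without Ezh2 K307R replicate 1, where the log2 fold change was 1.23 and the edgeR adjusted p 0.0681.

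Serpina3k (Entrez gene 20714, chromosome 12 from 104338486 to 104345739), also called contrapsin, is an abundant plasma serpin that inhibits trypsin-like proteases. It was the most abundant member in all 4 livers, with 80237 and 131309 reads in Ezh2 K307R livers and 312766 and 171519 reads in WT livers. The levels were 4257 and 6717 CPM in Ezh2 K307R livers against 18097 and 8119 CPM in WT livers. The WT livers differed from each other 2.23-fold and the Ezh2 K307R livers 1.58-fold, while the mean of the Ezh2 K307R livers was lower, with a log2 fold change of -1.26 (SE 0.43) and a 95% interval of -2.25 to -0.27. It did not pass across all genes (edgeR adjusted p = 0.19, unadjusted p = 0.0193). WT replicate 1 carried much of the difference, since the log2 fold change was -0.57 without it and -1.73 without WT replicate 2, where the gene passed (edgeR adjusted p = 0.00218). DESeq2 also called it (log2 fold change -1.27, adjusted p = 0.0110).

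Serpina3n (Entrez gene 20716, chromosome 12 from 104406646 to 104414334) is the acute phase member of the family in mice and inhibits granzyme B. It had 7493 and 8883 reads in Ezh2 K307R livers and 7325 and 6646 reads in WT livers. Its level was 398 and 454 CPM in Ezh2 K307R livers against 424 and 315 CPM in WT livers, so that the genotypes overlapped. The log2 fold change was 0.21 (SE 0.25) with an edgeR adjusted p of 0.746, and the 95% interval of -0.37 to 0.78 leaves room for a change of up to 1.72-fold upwards.

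Serpina3g (Entrez gene 20715, chromosome 12 from 104236147 to 104241939), or Spi2A, is an inhibitor of cysteine cathepsins in lymphoid and myeloid cells. It was at 3.98 and 5.73 CPM in Ezh2 K307R livers and 3.36 and 11.3 CPM in WT livers. The WT livers, 3.37-fold apart, enclosed both Ezh2 K307R livers. The log2 fold change was -0.60 (SE 0.51, edgeR adjusted p = 0.618), but it was 0.53 without WT replicate 2 (0.58) and -1.22 without WT replicate 1, where it passed (0.0417). Serpina3f (Entrez gene 238393, chromosome 12 from 104214544 to 104221129), which like Serpina3g is raised by interferon gamma, was at 1.86 and 3.02 CPM in Ezh2 K307R livers and 2.08 and 4.35 CPM in WT livers. These ranges overlapped too, and the log2 fold change of -0.41 (SE 0.45) did not pass (edgeR adjusted p = 0.72) and was 0.22 without WT replicate 2. WT replicate 2 was the highest of the 4 livers in both genes, and Ezh2 K307R replicate 2 was second in both. Per length, Serpina3g stood at 2.19 and 2.06 times Serpina3f in Ezh2 K307R livers and 1.61 and 2.71 times in WT livers, in ratios of FPKM. Serpina3f was the only member listed with more than 1 transcript. NM_001168295 took all 34.7 reads in Ezh2 K307R replicate 1 and all 36.2 in WT replicate 1. In Ezh2 K307R replicate 2 it took 13.8% of the gene's reads, beside NM_001033335, and in WT replicate 2 it took 65.9%, beside NM_001168294. Transcripts of so few reads are divided by estimate, and the split differed between replicates of a genotype.

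Serpina3c (Entrez gene 16625, chromosome 12 from 104146907 to 104153929), the kallikrein-binding member, was nearly absent, with 1 and 0 reads in Ezh2 K307R livers and 11 and 4 reads in WT livers. The filter on low counts left it out, and in the 3 settings that tested it the edgeR adjusted p was 0.185 with no filter, 0.331 without Ezh2 K307R replicate 1 and 0.601 without Ezh2 K307R replicate 2. These are rounded estimates, from expected counts of 1.37 in Ezh2 K307R replicate 1 and 11.39 and 3.6 in WT livers. The rounded 1 read in Ezh2 K307R livers and 15 in WT livers gave a ratio of WT to Ezh2 K307R of 14.996. The exact 95% counting interval was 2.31 to 631. It treats the rounded estimates as whole reads and covers counting error only, and rounding 1.37 down to 1 raised the ratio. Of the other Serpina3 genes 5 of 6 were listed, with 1 to 21 reads over the 4 livers, and 0 were tested. The highest of these, Serpina3h, a transcribed pseudogene, had 2 and 2 reads in Ezh2 K307R livers and 11 and 6 in WT livers.

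Levels of different members are compared per length, in FPKM, the authors' scaling by transcript length and library depth. In Ezh2 K307R livers the order was Serpina3k (2615 and 4250 FPKM), Serpina3m (316 and 287 FPKM), Serpina3n (193 and 227 FPKM), Serpina3g (1.99 and 2.94 FPKM), Serpina3f (0.91 and 1.43 FPKM) and Serpina3c (0.04 FPKM in replicate 1 and absent from the table of replicate 2). In WT livers Serpina3n (181 and 159 FPKM) came before Serpina3m (103 and 126 FPKM), below Serpina3k (9822 and 5189 FPKM) and above Serpina3g (1.48 and 5.87 FPKM), Serpina3f (0.92 and 2.17 FPKM) and Serpina3c (0.35 and 0.11 FPKM). Only Serpina3g and Serpina3f overlapped as neighbours in that order, in WT livers. Serpina3m and Serpina3n thus stood in opposite order in the genotypes, with Serpina3m at 1.64 and 1.26 times Serpina3n in Ezh2 K307R livers and 0.57 and 0.792 times in WT livers.

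The ratio between members of the same liver does not depend on how libraries are scaled. Serpina3k stood at 8.27 and 14.8 times Serpina3m in Ezh2 K307R livers and at 95.02 and 41.3 times in WT livers, in FPKM. As a fold, the gap between the nearest livers of the genotypes was wider than that between livers of a genotype. As a plain difference it was narrower than the gap between the WT livers. The liver with the least Serpina3k, Ezh2 K307R replicate 1, had the most Serpina3m. The liver with the most Serpina3k, WT replicate 1, had the least Serpina3m. Within a genotype the differences in Serpina3m were small. In CPM the WT livers differed 1.03-fold in Serpina3m and 2.23-fold in Serpina3k, and the Ezh2 K307R livers 1.14-fold and 1.58-fold. Against Serpina3n, Serpina3k stood at 13.6 and 18.7 times in Ezh2 K307R livers and 54.1 and 32.7 times in WT livers. With 2 livers a genotype an exact test over livers cannot reach 0.05, so these ratios are given without one.

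**Figure D3:**
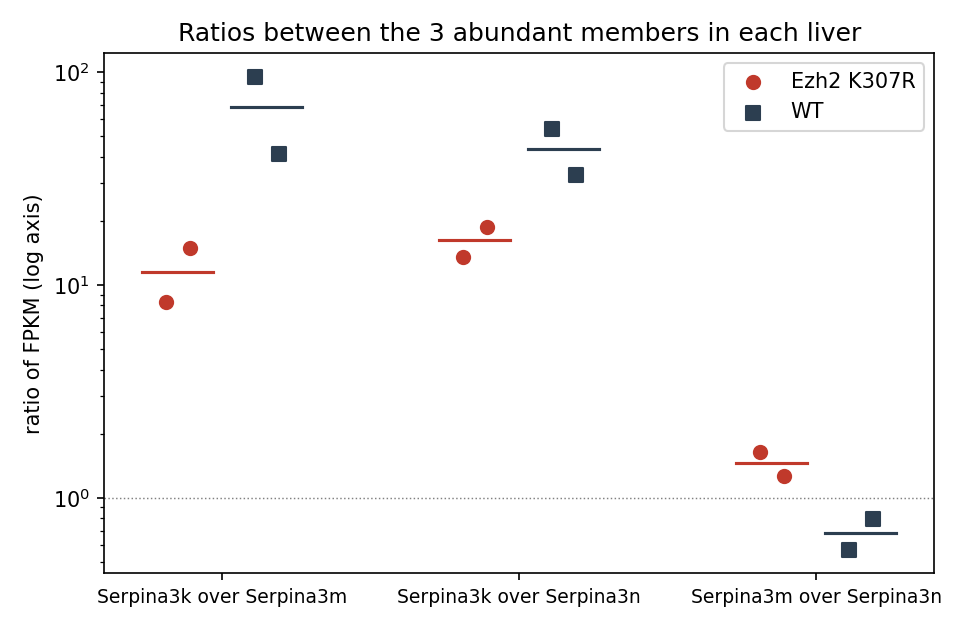
Ratios of FPKM between the 3 abundant members (log axis) in the 2 Ezh2 K307R livers (circles) and the 2 WT livers (squares), with lines at the means and a dotted line at equal levels. Serpina3m lies above Serpina3n in both Ezh2 K307R livers (1.64 and 1.26) and below it in both WT livers (0.57 and 0.792).

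The members lie within 267 kb of chromosome 12, next to the genes of alpha-1-antitrypsin and other clade A serpins. Of 12 clade A serpins outside the family that were tested, 1 rose and 2 fell, with a median log2 fold change of -0.23. Over all genes tested 1.39% rose and 1.47% fell. Serpina4-ps1, a serpin pseudogene, was at 2.28 and 4.3 CPM in Ezh2 K307R livers against 92.1 and 180 CPM in WT livers (log2 fold change -5.36, edgeR adjusted p = 0.00141). Serpina1e, which encodes a form of alpha-1-antitrypsin, fell by 3.996 on the log2 scale (edgeR adjusted p = 0.00336). Serpina1a, Serpina1b, Serpina1c and Serpina1d did not pass (edgeR adjusted p from 0.61 to 0.891). Shared sequence was gauged only for the Serpina3 members, so the division of reads among the Serpina1 genes was not examined. Serpina7, the thyroxine-binding globulin, rose by 1.73 (edgeR adjusted p = 0.0182) and lies outside the cluster. Of the 27 tested genes within 1000 kb of the family, 3 were called, against 2.86% of all genes tested. All 3 were clade A serpins, as were most of the 27. The 11 tested genes of that region that are not clade A serpins included 0 edgeR calls and had a median log2 fold change of -0.14. At an unadjusted edgeR p under 0.05 there were 4, all lower in Ezh2 K307R livers, against 16.8% of all genes tested. DESeq2 called 2 of the 11, against 5.95%, and limma-voom 0, against 2.3%.

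**Figure D4:**
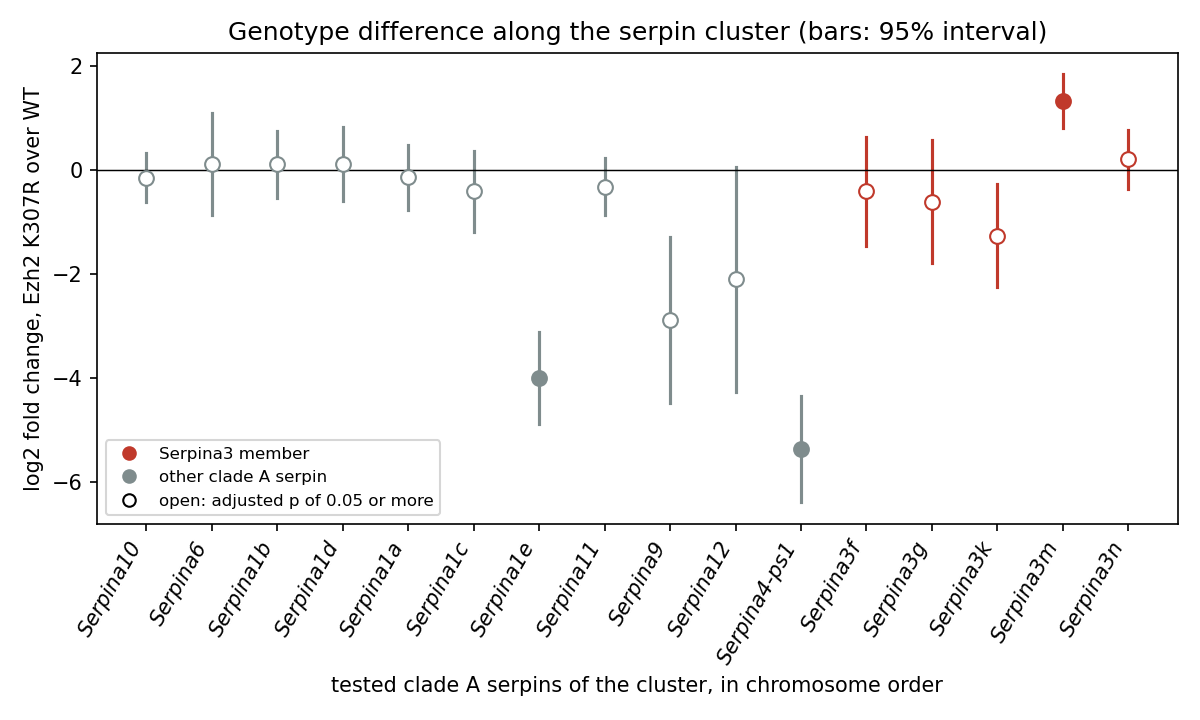
Log2 fold change, Ezh2 K307R over WT, of the tested clade A serpins of the cluster in chromosome order, with 95% intervals. Serpina3 members are in red, and open symbols mark genes that were not called. Serpina7, which lies outside the cluster, is not drawn. Serpina3m (1.32) lies between Serpina3k (-1.26) and Serpina3n (0.21), and the largest falls are Serpina4-ps1 (-5.36) and Serpina1e (-3.996).

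Upstream sequence was held for 4 of the 6 members in RefSeq's GRCm38.p6 table, Serpina3c, Serpina3f, Serpina3g and Serpina3n. The 250 bases before each start in that table were searched for TTCNNNGAA, the letters read by STAT factors and shared with BCL6, which are the same on both strands. Serpina3f held 1 match at position -121 and Serpina3g 1 match at position -33, and 7.02% of all 32851 promoters of that length held one. At the corresponding place in Serpina3c and Serpina3n the letters did not match. That place begins at -63 in Serpina3c and -61 in Serpina3n from the gene starts given above, or at -120 and -123 from the starts that table uses, which lie 57 and 62 bases inside the genes. The corresponding place was found in each gene by a fixed search pattern covering these 9 bases, and no alignment of promoters was made. Likeness within the 9 bases was therefore set by the search. The stretches are shown with those 9 bases in capitals.
Serpina3c (chr12:104153960-104154016, minus strand): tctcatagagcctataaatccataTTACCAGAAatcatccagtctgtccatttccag
Serpina3f (chr12:104214399-104214455, plus strand): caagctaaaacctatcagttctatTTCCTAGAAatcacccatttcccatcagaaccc
Serpina3g (chr12:104236090-104236146, plus strand): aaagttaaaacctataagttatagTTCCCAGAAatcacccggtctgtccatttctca
Serpina3n (chr12:104406561-104406617, plus strand): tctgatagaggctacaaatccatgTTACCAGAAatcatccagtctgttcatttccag
The letters ACANNNTGT, part of the glucocorticoid receptor's motif and also the same on both strands, occurred once each in Serpina3c, Serpina3f and Serpina3n, and in 5.83% of all promoters. TTGCNNAA, a form of the C/EBP motif, was searched on both strands and occurred at 2 places in Serpina3f and in 9.56% of all promoters. A match is a description of these letters and does not show binding.

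The known inputs of the family were looked at by lists. Over all genes tested, edgeR called 2.86%, DESeq2 5.95% and limma-voom 2.3%, and 16.8% had an unadjusted edgeR p under 0.05. These shares are the background for the counts in every list below, including the cell type markers. Of 21 genes of interleukin 6, STAT3 and C/EBP signalling, 0 passed edgeR's test in either direction (3 at an unadjusted p under 0.05, 2 with DESeq2, 0 with limma-voom), with a median log2 fold change of 0.07. The closest was Cebpb, a factor that drives acute phase genes, at 44.1 ± 16.2 CPM in Ezh2 K307R livers and 106 ± 2.03 CPM in WT livers (SD, n = 2 each, edgeR adjusted p = 0.0515). Of 28 acute phase genes, 1 rose and 1 fell, with a median of 0.13. DESeq2 called 7 of them, 2 higher and 5 lower in Ezh2 K307R livers, limma-voom called 3, and 11 had an unadjusted edgeR p under 0.05, 4 higher and 7 lower. Lbp, the lipopolysaccharide-binding protein, rose by 1.10 (edgeR adjusted p = 0.0365), and Saa1, serum amyloid A, fell by 1.22 on the log2 scale (edgeR adjusted p = 0.0341). Serpina3n, itself an acute phase transcript, overlapped between the genotypes.

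Of 16 genes of growth hormone and STAT5 signalling, 2 rose and 0 fell, with a median of 0.30, and 5 were higher at an unadjusted edgeR p under 0.05. DESeq2 called the same 2, and limma-voom called 1 of them, Prlr. The 2 that rose were Prlr, the prolactin receptor, at 574 ± 66.8 CPM in Ezh2 K307R livers and 136 ± 39.7 CPM in WT livers (edgeR adjusted p = 0.0122, SD, n = 2 each), and Stat5a, at 18.4 ± 4.61 CPM in Ezh2 K307R livers and 7.88 ± 0.968 CPM in WT livers (edgeR adjusted p = 0.045). Of 14 genes of the glucocorticoid list, 1 fell and 0 rose, with a median of 0.08. It was Dusp1, a phosphatase of MAP kinases (log2 fold change -1.38, edgeR adjusted p = 0.0364). Of 20 interferon gamma genes 0 passed edgeR's test (2 at an unadjusted p under 0.05, 0 with DESeq2 and 0 with limma-voom), with a median of -0.16, and the smallest adjusted p was that of Irf1 (log2 fold change 0.74, edgeR adjusted p = 0.119).

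A list of proteases was also looked at, which holds targets of serpins of this kind or their relatives but not only such targets. Of the 17 listed, 10 had enough reads, and 1 rose and 1 fell, with a median of 0.35. Ctsc, cathepsin C, which activates granzymes and neutrophil proteases, was at 195 ± 22.0 CPM in Ezh2 K307R livers and 60.3 ± 3.89 CPM in WT livers (SD, n = 2 each), and rose by 1.69 as a log2 fold change (edgeR adjusted p = 0.00797). Prtn3, proteinase 3 of neutrophils, was at 0.477 and 0.358 CPM in Ezh2 K307R livers and 2.43 and 2.27 CPM in WT livers (edgeR adjusted p = 0.0346). Cathepsin G (Ctsg), neutrophil elastase (Elane) and chymase (Cma1), the classical targets of antichymotrypsin or its relatives, had at most 20 reads each over the 4 livers.

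Markers of liver cell types were set beside these values. Hepatocyte markers, the cells that make the abundant members, summed to between 133178 and 137588 CPM in Ezh2 K307R livers and between 148165 and 149345 CPM in WT livers, with 0 of 7 called. Stellate cell markers summed to between 394 and 506 CPM in Ezh2 K307R livers and between 141 and 225 CPM in WT livers. Of their 7 members 2 rose and 0 fell, namely Dcn (log2 fold change 1.36, edgeR adjusted p = 0.0347) and Colec11 (1.505, edgeR adjusted p = 0.0354), while DESeq2 called 4, all higher, and 5 had an unadjusted edgeR p under 0.05. Kupffer cell markers summed to between 201 and 304 CPM in Ezh2 K307R livers and between 149 and 182 CPM in WT livers, with 0 of 7 called. Lymphocyte markers summed to between 5.27 and 7.85 CPM in Ezh2 K307R livers and between 7.35 and 9.09 CPM in WT livers, with 0 of 8 called. Neutrophil markers summed to between 15.2 and 20.8 CPM in Ezh2 K307R livers and between 14.3 and 17.5 CPM in WT livers, with 0 of 5 called. Erythroid markers summed to between 674 and 770 CPM in Ezh2 K307R livers and between 437 and 553 CPM in WT livers, with a median log2 fold change of 0.73. The 1 of 5 called, Alas2, fell, against the direction of the other 4, which are globin genes. These were higher in Ezh2 K307R livers at an unadjusted edgeR p under 0.05, and DESeq2 called 3 of them. Pancreas markers summed to between 4.65 and 6.37 CPM in Ezh2 K307R livers and between 11.6 and 16.95 CPM in WT livers, and 1 of 2, Cela2a, fell. Sinusoidal endothelial markers summed to between 84.3 and 95.1 CPM in Ezh2 K307R livers and between 56.4 and 77.9 CPM in WT livers (0 of 6 called), and bile duct markers to between 32.0 and 60.1 CPM in Ezh2 K307R livers and between 54.5 and 70.4 CPM in WT livers (0 of 5 called). Of the lists without an edgeR call, unadjusted p values under 0.05 were found for 0 hepatocyte, 4 Kupffer cell, 1 lymphocyte, 1 neutrophil, 3 endothelial and 1 bile duct marker, and DESeq2 called 1 Kupffer cell marker and 0 of the others. The part of these differences in the Serpina3 values was not tested.

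The genes whose pattern over the 4 livers was most like that of Serpina3m, by root mean square difference of centred log2 CPM among 7386 genes, were Bcor (0.0576), Nr1d1 (0.0639), Thra (0.0701), Hsd17b6 (0.0776) and Cbs (0.0892). Bcor, a corepressor, was at 19.6 and 18.5 CPM in Ezh2 K307R livers and 7.35 and 8.24 CPM in WT livers. Nr1d1, a clock repressor that lies beside Thra in the genome, was at 87.2 and 75.7 CPM in Ezh2 K307R livers and 35.5 and 33.4 CPM in WT livers. For the family sum, genes among the nearest were Rarres1 (0.0838), C9 (0.112), Hsd3b2 (0.115) and Dio1 (0.134). C9, a component of the complement attack complex, was at 161 and 197 CPM in Ezh2 K307R livers and 570 and 235 CPM in WT livers. Likeness over 4 livers is a description only.

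**Figure D5:**
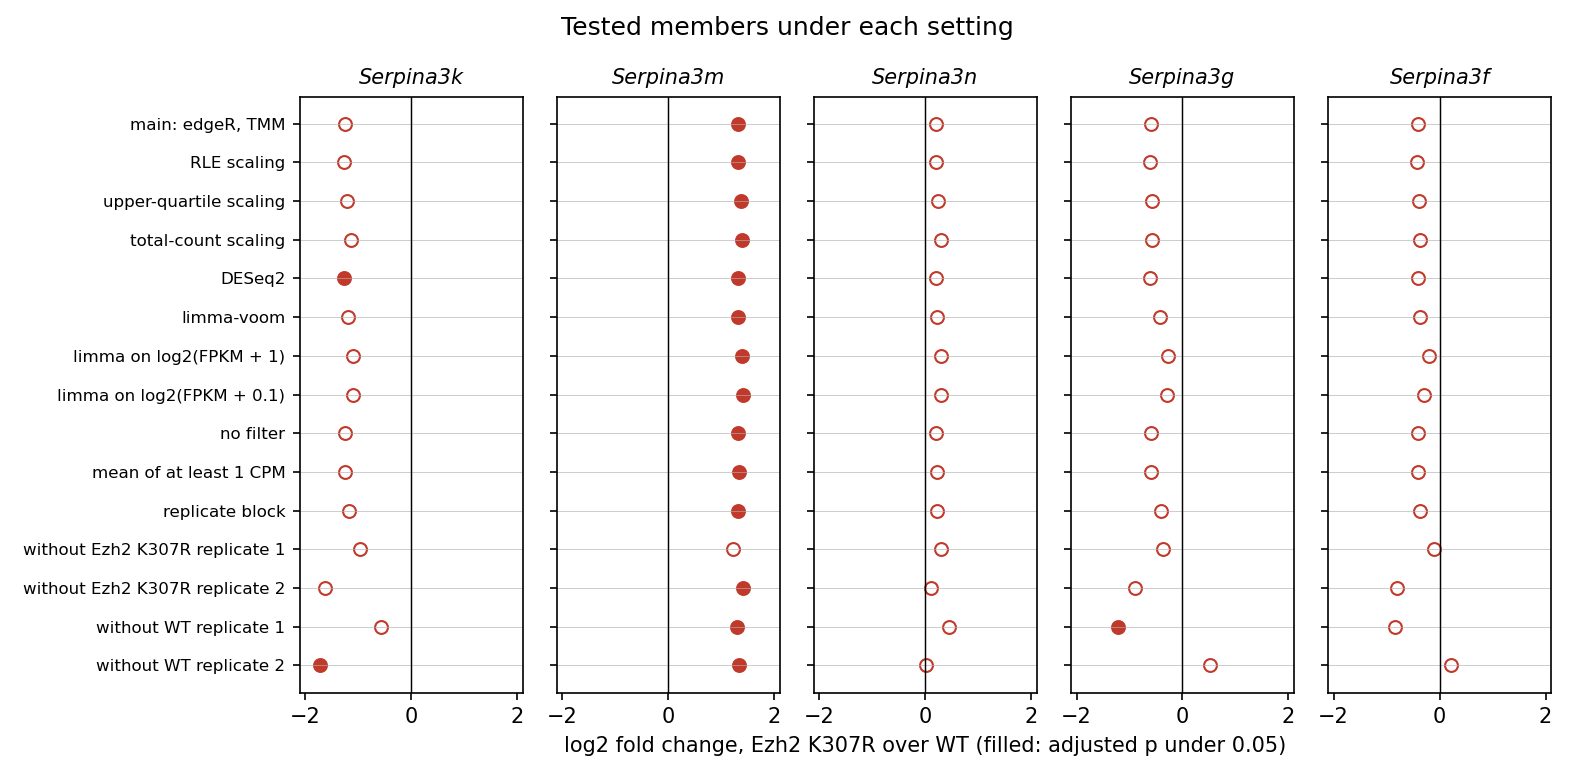
Log2 fold change, Ezh2 K307R over WT, of the 5 tested members (1 panel each) under each scaling, tool, filter and left-out liver, filled where the adjusted p was under 0.05. Serpina3m stays between 1.23 and 1.41 and is open only without Ezh2 K307R replicate 1, Serpina3k moves between -1.73 and -0.57, and Serpina3g and Serpina3f lie above 0 only without WT replicate 2.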

How the data were processed

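Livers were flash frozen and RNA was extracted with TRIzol, per the labels' protocols. Per the submitters' processing notes the tools were HISAT, Bowtie2 and RSEM and the build mm10, without role or version. Strand setting and read length are unknown here. The deposited expected counts (RSEM's estimated counts per RefSeq transcript) were not normalized, and the authors divided FPKM values by transcript length and depth, per the file headers. Transcripts not listed in a liver count as 0.

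Counts were summed per Entrez gene and rounded, and 17502 of 17543 genes were named through RefSeq's GRCm38.p6 table. Genotypes were compared by the quasi-likelihood F test of edgeR 4.0.16 (R 4.3.3) after TMM scaling and filterByExpr, with genotype as the only term. P values were adjusted by Benjamini-Hochberg over all 12837 genes tested (threshold 0.05). Settings tried besides were other scalings, DESeq2 1.42.0, limma 3.58.1, other filters, the replicate number as a block and each liver left out. A genotype left with 1 liver is assumed to vary as the other does. Deviations of same-numbered livers correlated at 7.8e-04, so the number was not taken to pair them. Replicate livers were not copies of each other, with a mean chi-square per gene of 50.5 between Ezh2 K307R livers and 92.0 between WT livers. The script was tested on simulated data.

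The members and lists were chosen with earlier results of these data known. Named genes are all members and, of each other list, called genes (up to 6) or otherwise those of smallest p (up to 3), and the 5 nearest in pattern among genes of at least 10 CPM. A gene that this rule selects is not reported here. Arntl, Ezh2, Serpina3h, Ctsg, Elane and Cma1 were named outside this rule after their values were seen. Of 209 list symbols 199 were in the tables. Coding sequences were aligned with MAFFT 7.526.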

Additional observations from a re-analysis of the deposited data

How the results depend on the processing

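The number of genes called was 367 with edgeR, 764 with DESeq2, 829 with no filter, 163 with limma on log2(FPKM + 1) and 161 on log2(FPKM + 0.1), and between 211 and 720 with a liver left out. The number of members called was 1 with edgeR and 2 with DESeq2, which added Serpina3k (log2 fold change -1.27, adjusted p = 0.0110), and between 0 and 2 with a liver left out. With a liver left out, log2 fold changes ran from 1.23 to 1.41 for Serpina3m, from -1.73 to -0.57 for Serpina3k, from -1.22 to 0.53 for Serpina3g and from -0.83 to 0.22 for Serpina3f. Serpina3m kept its call in 13 of 14 settings. The family sum, at a log2 ratio of -1.09, ran from -1.55 to -0.43 with a liver left out (-0.43 without WT replicate 1), and from -1.11 to -0.97 with other scalings or FPKM. With the replicate block 347 genes were called, Serpina3m among them (log2 fold change 1.32, edgeR adjusted p = 0.0381), and no other member's call changed. Why these values move was not tested. The design has 2 livers a genotype, which limits every comparison, and the division of reads between members of shared sequence was not checked on reads.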
